A study of Mus musculus with 6 samples.

Results

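Serum amyloid A (SAA) and other acute phase genes were examined in endothelial cells (ECs) of the mouse lung after unilateral pneumonectomy (PNX), in which 1 lung is taken out and the lung that is left grows. The 7 genes Saa1, Saa2, Saa3, Lcn2, Hp, Ptx3 and Orm1, of 24063 gene symbols in all, were chosen by a measured value, the difference of Saa3 between PNX and sham, one of the largest in these libraries. Their PNX values are therefore a description without a test. Bulk RNAseq was performed on ECs that the authors isolated with anti-CD31 conjugated magnetic beads from lungs of male C57BL6 mice, labelled as 8 week old (the study's methods give an older age at surgery). The sham group (3 libraries) had a thoracotomy without lung removal, the PNX group (3 libraries) was taken at day 7, and every library pooled 2 mice. No genetic change is named for either group. CD31 also occurs on some leukocytes and platelets, which such beads can retain.

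Total counts ranged from 29526989 to 81282871 per library and were lowest in replicate 3 of each group. In sham and PNX alike, replicates 1 and 2 carry a re-use mark in their labels (the earlier deposit) and replicate 3 carries none (the later deposit). The counts of replicates 1 and 2 lay close to sampling noise, with a chi-square per degree of freedom of 1.75 in sham and 1.57 in PNX, against 67.9 to 86.4 for pairs with replicate 3. Replicates 1 and 2 of a group were therefore summed into 1 earlier sample beside 1 later sample, so n = 2 per group. The study's methods count each library as its own pool of mice (n = 3 per group), which differs from the n used here, and p-values measure only the spread between these samples. All 11 endothelial markers examined, such as Pecam1 (CD31) and Cdh5 (VE-cadherin), were detected in every library. Their summed level was 9391 to 11435 CPM (counts scaled to library size by TMM) in sham and 8528 to 9664 CPM after PNX. Of the 11, 5 had all PNX libraries below all sham libraries, against 17.9% of all genes tested. Emcn was the 1 marker with all PNX libraries above, against 18.8% of genes.

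Acute phase proteins are secreted in large amounts during inflammation or injury, mostly by the liver under the control of interleukin-6, interleukin-1 and tumour necrosis factor, which act through the transcription factors STAT3, NF-κB and C/EBP. SAA proteins are small apolipoproteins of high-density lipoprotein. In mice, Saa1 and Saa2 are the main liver genes, whereas Saa3 is made outside the liver, for example by macrophages, adipocytes and epithelial cells. Lcn2 encodes lipocalin-2, which binds bacterial siderophores and is stored in neutrophil granules. Hp encodes haptoglobin, which binds free haemoglobin, Ptx3 a long pentraxin of innate immunity made by ECs, fibroblasts and macrophages, and Orm1 the plasma carrier orosomucoid (α1-acid glycoprotein).

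The SAA genes lie together on chromosome 7 of GRCm38, where Saa3 (46711998 to 46715700, minus strand, 4 exons), Saa4, Saa1 (46740497 to 46742980, minus strand, 4 exons) and Saa2 (46751790 to 46754313, plus strand, 4 exons) span 42316 bases in the GENCODE vM21 annotation. Lcn2 lies on chromosome 2 (32384633 to 32388252, minus strand, 6 exons), Ptx3 on chromosome 3 (66219910 to 66225805, plus strand, 3 exons), Orm1 on chromosome 4 (63344560 to 63348163, plus strand, 6 exons) and Hp on chromosome 8 (109575128 to 109579172, minus strand, 5 exons). Each was counted on 1 RefSeq transcript. Ptx3 overlaps Veph1 on the opposite strand. The overlap was taken over whole genes and not over exons, and no source says that counting used strand. Whether reads of these 2 genes were mixed is therefore not known. Veph1 itself had 14 to 85 counts per sham library and 16 to 86 per PNX library. None of the other 6 genes overlaps another annotated gene.

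The promoters show how unlike Saa3 is to its neighbours in the windows next to the start of transcription. RefSeq (GRCm38.p6) promoter windows were matched for 5 of the 7 genes, not for Hp and Orm1. The 250 bases before the RefSeq start, printed 5′ to 3′ on the gene's own strand, lie at chr7:46715677-46715926 (minus strand) for Saa3, chr7:46742981-46743230 (minus) for Saa1, chr7:46751583-46751832 (plus) for Saa2, chr3:66219637-66219886 (plus) for Ptx3 and chr2:32387740-32387989 (minus) for Lcn2. Capitals mark matches, on either strand, to the C/EBP motif TTGCNNAA or to the NF-κB motif, here GGG and CC with any 5 bases between them.
Saa3: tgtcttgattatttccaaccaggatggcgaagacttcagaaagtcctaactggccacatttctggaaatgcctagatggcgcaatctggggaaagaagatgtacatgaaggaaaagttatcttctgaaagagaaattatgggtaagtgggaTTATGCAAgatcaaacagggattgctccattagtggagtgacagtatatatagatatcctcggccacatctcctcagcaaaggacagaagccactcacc
Saa1: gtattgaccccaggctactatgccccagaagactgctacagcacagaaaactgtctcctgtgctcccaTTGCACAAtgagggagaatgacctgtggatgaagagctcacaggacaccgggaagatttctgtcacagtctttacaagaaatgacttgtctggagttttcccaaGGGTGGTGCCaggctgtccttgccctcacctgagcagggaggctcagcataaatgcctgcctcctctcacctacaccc
Saa2: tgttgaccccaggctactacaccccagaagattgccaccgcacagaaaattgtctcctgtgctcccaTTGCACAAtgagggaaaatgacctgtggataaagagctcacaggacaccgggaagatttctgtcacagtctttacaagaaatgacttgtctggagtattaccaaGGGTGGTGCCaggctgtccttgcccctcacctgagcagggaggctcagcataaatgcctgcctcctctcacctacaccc
Ptx3: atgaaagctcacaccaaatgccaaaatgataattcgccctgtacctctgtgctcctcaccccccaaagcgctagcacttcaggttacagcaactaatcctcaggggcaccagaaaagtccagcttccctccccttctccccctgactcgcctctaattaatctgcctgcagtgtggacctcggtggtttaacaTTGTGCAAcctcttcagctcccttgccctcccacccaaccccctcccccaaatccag
Lcn2: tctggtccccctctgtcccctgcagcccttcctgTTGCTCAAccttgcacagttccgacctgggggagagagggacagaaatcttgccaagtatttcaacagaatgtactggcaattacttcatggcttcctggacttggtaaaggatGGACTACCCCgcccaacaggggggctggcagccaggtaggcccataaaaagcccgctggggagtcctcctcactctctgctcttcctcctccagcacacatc
Aligned end to end, the windows of Saa1 and Saa2 were identical in 94.8% of columns, and that of Saa3 was identical to them in 48.9% and 47.9%, close to the 44.6% between Saa3 and the unrelated Ptx3. The letters of the motifs were chosen after these windows were seen. TTGCNNAA was found in 5 of 5 windows and in 9.56% of all 32851 windows of the same length, at 99 to 92 bases before the start in Saa3, 182 to 175 in Saa1, 183 to 176 in Saa2, 57 to 50 in Ptx3 and 216 to 209 in Lcn2. The NF-κB motif was found in 3 of 5 windows (Saa1, Saa2 and Lcn2) and in 45.8% of all. The STAT motif TTCNNNGAA and the TATA motif TATAAA were found in 0 of 5 windows, and in 7.02% and 12.4% of all. A match is a run of letters and not evidence of binding, and the letters being absent from a window says nothing on the factor.

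Saa3 was low in sham ECs and among the most abundant transcripts after PNX. In the order of replicates 1, 2 and 3, used throughout, sham held 110, 96 and 87 Saa3 counts, whereas PNX held 13864, 11920 and 2563. These are 1.36, 1.34 and 2.58 CPM in sham and 187, 182 and 85.9 CPM after PNX. Every PNX library lay above every sham library, with replicate 3 the highest in sham and the lowest in PNX. By TPM, the authors' abundance per length of transcript, Saa3 ranked between 9284 and 11075 of 24063 symbols in the sham libraries, and 135, 143 and 404 in the PNX libraries.

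Over the samples, Saa3 was at 1.97 ± 0.842 CPM in sham against 135 ± 68.2 CPM after PNX (SD, n = 2 each). The log2 fold change in edgeR was 6.16 (standard error 0.58) with 4 samples and 6.29 (0.41) with the replicate block, that is, with the deposit as a covariate, and it lay between 6.08 and 6.64 under every alternative tried. It ranked 2 of 14290 tested genes with a mean count of at least 50. The ratio of PNX to sham was 134 (exact 95% interval 117 to 154) within the earlier deposit and 33.9 (27.4 to 42.5) within the later. These intervals cover counting error only, and with 1 sample per group and deposit the difference between the deposits was not tested. Saa3 was 1 of 3 members (with Ptx3 and Orm1) whose PNX libraries all lay above all sham libraries, as did 18.8% of the 16598 genes tested. Orm1 was among the genes tested only with the help of its PNX samples.

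**Figure D1:**
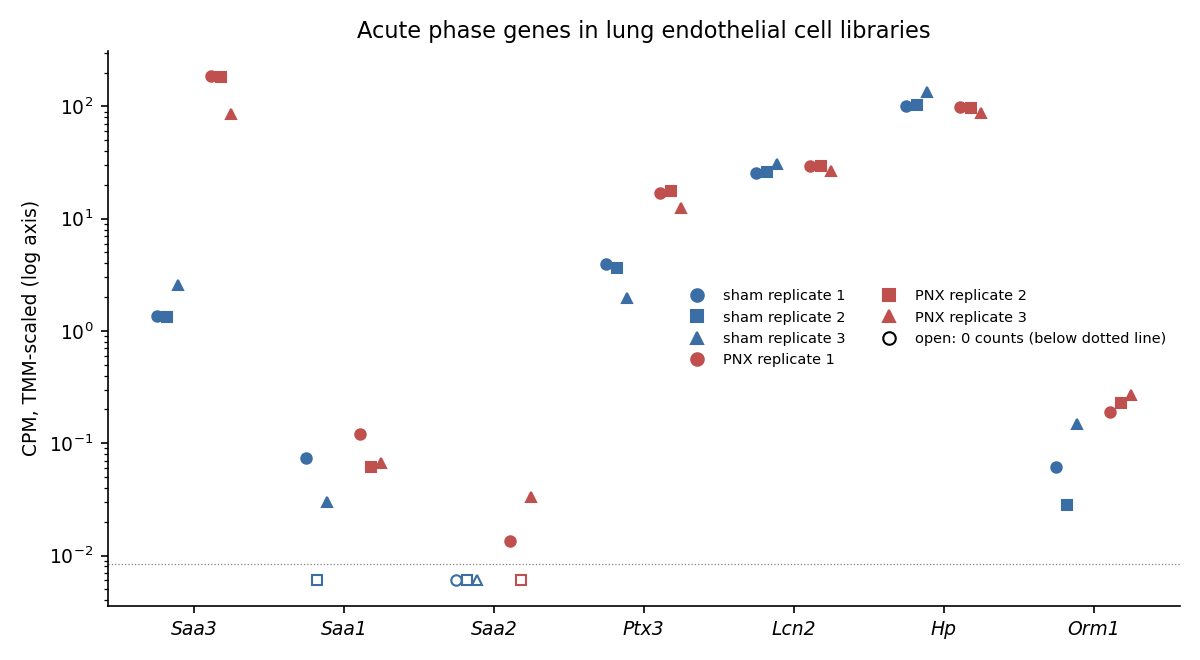
Level of each gene in each library, in CPM on a log axis (blue, sham; red, PNX; circle, square and triangle, replicates 1, 2 and 3; open symbols below the dotted line, 0 counts). Saa3 moves from 1.34 to 2.58 CPM in sham to 85.9 to 187 CPM after PNX, while Lcn2 and Hp stay near their sham levels and Saa1, Saa2 and Orm1 lie below 1 CPM in every library.

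Saa1 and Saa2, the liver-type SAA genes beside Saa3, stayed at the limit of detection. Saa1 had 6, 0 and 1 counts in sham and 9, 4 and 2 after PNX, so the groups overlap. With 15 PNX counts and 7 sham counts the ratio of levels was 2.32 (exact 95% interval 0.890 to 6.73), a difference not detectable at this depth. Saa2 had 0 counts in every sham library and 1, 0 and 1 after PNX. A count of 0 allows up to 3 counts, which is 0.0372 to 0.0891 CPM in the sham libraries, so no fold is given. Neither gene passed the filter on low counts, and 5 of the 7 members did. Saa4, another gene of the cluster, had 0 counts in sham and 5, 2 and 0 after PNX.

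Saa3 made up nearly all SAA counts in both groups. Its share of the counts of Saa1 to Saa4 was 94.8% (exact 95% interval 89.1 to 98.1) to 100% (96.2 to 100) in the sham libraries and 99.9% in each PNX library (the lowest bound 99.7). Of the stretches of 50 bases in the transcripts, 14.8% of those of Saa1 also occur in Saa2 or Saa3 and 13.3% of those of Saa2 in Saa1, but 1.78% of those of Saa3 in Saa1. The few Saa1 and Saa2 counts are uncertain where the counting could divide reads among these genes.

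Ptx3, which encodes the long pentraxin, was also higher after PNX, from a lower level. It had 320, 261 and 66 counts in sham and 1260, 1146 and 374 after PNX, or 3.97, 3.64 and 1.96 CPM against 17.0, 17.5 and 12.5 CPM. The groups do not overlap, and replicate 3 was the lowest library of each. Over the samples the level was 2.90 ± 1.36 CPM in sham against 14.9 ± 3.14 CPM after PNX (SD, n = 2 each), with a log2 fold change of 2.33 (standard error 0.39) with 4 samples and 2.36 (0.17) with the replicate block. The ratio of PNX to sham was 4.42 (exact 95% interval 4.04 to 4.85) within the earlier deposit and 6.52 (5.01 to 8.61) within the later.

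Orm1, the orosomucoid gene, was near the limit of detection. It had 5, 2 and 5 counts in sham and 14, 15 and 8 after PNX, and its highest sham library (0.149 CPM) lay just below its lowest PNX library (0.188 CPM). With 37 PNX counts and 12 sham counts the ratio of levels was 3.34 (exact 95% interval 1.70 to 7.03), and by deposit 4.43 (earlier, 1.90 to 12.0) and 1.84 (later, 0.531 to 7.15). On 4 samples edgeR gave a log2 fold change of 1.56 (standard error 0.73). Its paralogues Orm2, with 9, 10 and 9 counts in sham and 6, 11 and 2 after PNX, and Orm3, with 38, 16 and 22 counts in sham and 12, 10 and 4 after PNX, were not higher. Orm3 did not pass the test (log2 fold change -1.69, standard error 0.53, edgeR adjusted p = 0.305 without and 0.0501 with the replicate block). Since 20.4% of the stretches of 50 bases of the Orm1 transcript occur in Orm2 or Orm3, the division of these few counts among the 3 genes is uncertain.

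Lcn2 was at a similar level in both groups. It had 2061, 1884 and 1031 counts in sham and 2179, 1925 and 786 after PNX, or 25.6, 26.3 and 30.6 CPM against 29.3, 29.3 and 26.4 CPM. The groups overlap, since replicate 3 was the highest library in sham and the lowest in PNX. The level was 28.3 ± 2.90 CPM in sham against 27.9 ± 1.80 CPM after PNX (SD, n = 2 each), with a log2 fold change of -0.02 (standard error 0.15), and from -0.03 to 0.10 under the alternatives. The ratio of PNX to sham was 1.11 (exact 95% interval 1.06 to 1.16) within the earlier deposit and 0.877 (0.799 to 0.964) within the later. As Lcn2 is a neutrophil granule gene, neutrophil markers are given beside it. Of 12 such markers 11 are listed (Ly6g is not), and all were detected. Of these, 1 (Mmp8) had all PNX libraries above all sham libraries, against 18.8% of all genes tested. The listed markers summed to 265, 269.9 and 744 CPM (sham) and to 303, 298 and 653 CPM (PNX), high in replicate 3 of both groups, with Csf3r the most abundant. Their part in the level of Lcn2 was not tested.

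Hp, the most abundant of the 7 genes in sham, was slightly lower after PNX. It had 8192, 7400 and 4548 counts in sham and 7276, 6401 and 2616 after PNX, or 102, 103 and 135 CPM against 97.9, 97.6 and 87.7 CPM. The groups did not overlap, as for 17.9% of tested genes with all PNX libraries below all sham libraries, but the gap between the nearest libraries was small. The level was 119 ± 21.3 CPM in sham against 92.9 ± 6.08 CPM after PNX (SD, n = 2 each), a log2 fold change of -0.35 (standard error 0.18). The ratio of PNX to sham was 0.937 (exact 95% interval 0.916 to 0.959) within the earlier deposit and 0.662 (0.631 to 0.695) within the later. Alveolar type 2 and club airway cells, which are epithelial, were represented in the libraries, and their markers are given beside Hp. All 8 alveolar type 2 markers, with surfactant gene Sftpc the most abundant, and all 7 club airway markers, with Scgb1a1 the most abundant, had all PNX libraries below all sham libraries. With the replicate block 3 and 7 of them were called, against 1.23% of all genes tested called lower (5.12% in either direction). The alveolar type 2 markers summed to 5496 to 6023 CPM in sham and 2132 to 3615 CPM after PNX, and the club airway markers to 2489 to 4556 CPM and 1162 to 1212 CPM. Their part in the level of Hp was not tested, and in bulk samples fewer cells of a type and less RNA per cell cannot be told apart.

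Per length of transcript, the order of the genes differed between the groups. In sham, Hp was the highest at 222 ± 40.6 TPM, followed by Lcn2 at 83.2 ± 8.84 TPM, Saa3 at 9.29 ± 4.02 TPM, Ptx3 at 3.78 ± 1.75 TPM, Orm1 at 0.315 ± 0.236 TPM and Saa1 at 0.139 ± 0.0236 TPM (SD, n = 2 each), with Saa2 at 0 counts. Orm1 and Saa1 overlapped between libraries. After PNX, Saa3 was the highest at 634 ± 317 TPM, followed by Hp at 173 ± 10.2 TPM, Lcn2 at 81.7 ± 4.78 TPM, Ptx3 at 19.4 ± 3.97 TPM, Orm1 at 0.779 ± 0.151 TPM, Saa1 at 0.326 ± 0.0643 TPM and Saa2 at 0.0833 ± 0.0793 TPM. Neighbours in this order did not overlap between PNX libraries, but Orm1, Saa1 and Saa2 rest on at most 15 counts per library. The 7 genes together came to 279.6 to 355 TPM in sham and 672 to 1157 TPM after PNX. Saa3 was 2.25% to 3.42% of that sum in sham and 61.1% to 75.1% after PNX.

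**Figure D2:**
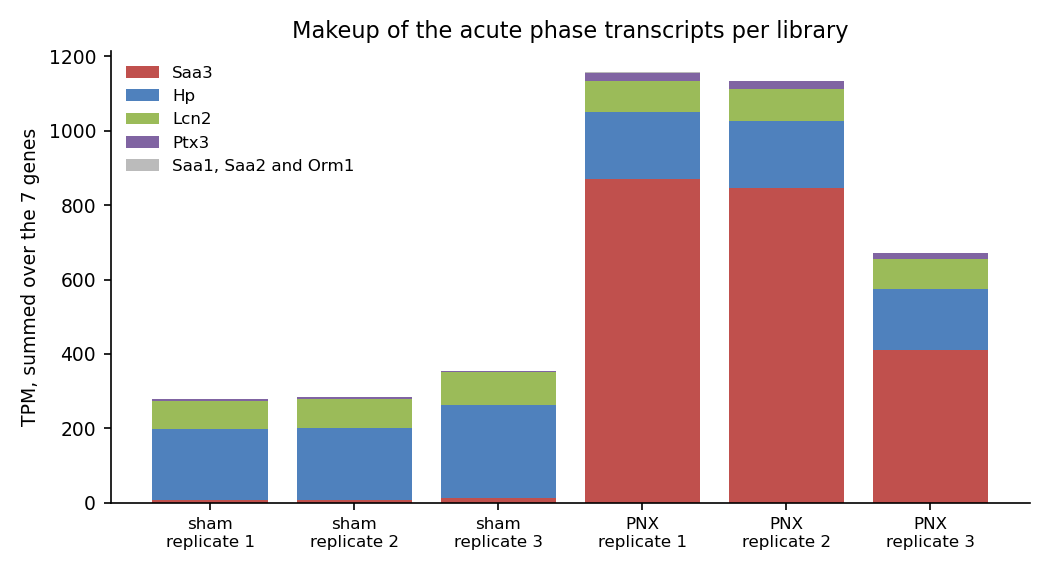
Summed TPM of the 7 genes in each library, divided by gene. In sham, Hp and Lcn2 form nearly the whole of the 279.6 to 355 TPM, whereas after PNX Saa3 forms 61.1% to 75.1% of 672 to 1157 TPM.

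With 4 samples, 3 of the 5 members that passed the filter (Saa3, Ptx3 and Orm1) had a log2 fold change above 1, as did 5.84% of the 16598 genes tested. For Orm1 only the later sham sample reached the level of the filter, so it needed a PNX sample to pass. Its place among the 3 is therefore not read as a result. No member was below -1, as were 3.51% of genes. The 5 had a median of 1.56 beside -0.01 over all genes tested, from which nothing is read, since this contrast chose the genes. The 7 genes did not move together: the ratio of PNX to sham over all counts was 105 for Saa3 and 4.65 for Ptx3, while Lcn2 and Hp lay between 0.662 and 1.11 in either deposit.

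**Figure D3:**
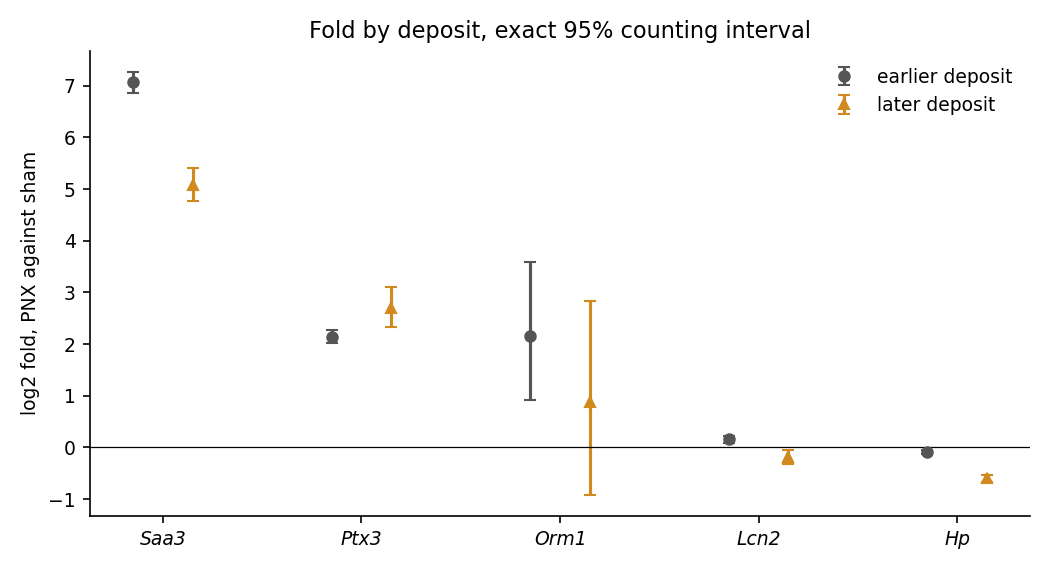
Log2 fold of PNX against sham within the earlier deposit (grey circles) and the later one (orange triangles) for the 5 members that passed the filter, with exact 95% intervals that cover counting error only. Saa3 lies at 7.06 and 5.08, Ptx3 at 2.15 and 2.71, Orm1 at 2.15 and 0.88, Lcn2 at 0.15 and -0.19 and Hp at -0.09 and -0.60.

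The deposits give a comparison that the choice of the genes did not use. In edgeR's quasi-likelihood test of the later against the earlier deposit, with the group in the model, 0 of the 5 members reached the threshold used here (adjusted p below 0.01 and a log2 difference beyond 1 in size), against 3.31% of all genes (2.62% higher and 0.693% lower in the later deposit). Ptx3 was lower in the later deposit in both groups, with log2 differences of -0.99 in sham and -0.43 after PNX (fitted difference -0.66, standard error 0.16, edgeR adjusted p = 0.0252, unadjusted p = 0.00479). For the other members the edgeR adjusted p lay between 0.352 (Orm1) and 0.812 (Lcn2). For Saa3 the log2 difference was 0.90 in sham and -1.08 after PNX (edgeR adjusted p = 0.363 for the fitted difference of -0.49). This fit has 1 residual degree of freedom.

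Other genes of the acute phase pathway were examined in 4 lists of 102 genes, none of them a member, of which 89 passed the filter. In edgeR's quasi-likelihood test with 4 samples and no block, 0 of 89 reached the same threshold, as did 0 of all 16598 genes, while 17 of the 89 and 2076 of all genes had an unadjusted p under 0.05. On the same 4 samples limma-voom called 0 list genes and DESeq2 8. The fit with the replicate block has 1 residual degree of freedom, against 2 without it. Its p-values therefore rest largely on the spread shared over genes. Once the replicate block was added, edgeR called 11 of 89 (12.4%), all higher after PNX, against 3.89% of all genes called higher (5.12% in either direction). This number was 10 without sham replicate 1, sham replicate 2 or PNX replicate 2, and 6 without PNX replicate 1, where A2m, Hmox1, Lif, Msr1 and Tnfaip6 were no longer called. The 89 genes had a median log2 fold change of 0.15. The lists were chosen with earlier results of these data known, so nothing is read from their share of called genes beside that of all genes.

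Among the inducing cytokines and their receptors, 1 of 23 tested genes passed with the block, and it was higher. This was Lif, encoding leukaemia inhibitory factor, a cytokine of the interleukin-6 family, at 14.1, 13.8 and 31.9 CPM in sham, against 39.9, 38.9 and 52.7 CPM after PNX (log2 fold change 1.02, standard error 0.42, edgeR adjusted p = 0.433 without and 0.00345 with the block). Lif was not called with the block under any of the other 3 scalings (DESeq2's size factors, upper quartile, library size alone) or without PNX replicate 1, nor by DESeq2 without a block. Its receptor Lifr was at 170.5 to 173 CPM in sham and 104 to 107 CPM after PNX and did not pass the fold threshold (log2 fold change -0.70, standard error 0.13). Il22ra1, the receptor of interleukin-22, was at 2.00 ± 0.839 CPM in sham and 3.94 ± 2.15 CPM after PNX, and the cytokine Clcf1 at 6.95 ± 1.28 and 4.86 ± 0.213 CPM (SD, n = 2 each), neither passing the test. The median of the list was 0.11.

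Among signal transducers and transcription factors, 0 of 19 tested genes passed with or without the block, and the median was -0.06. Among those with a mean count of at least 50, the highest log2 fold changes were 0.54 for Bcl3 (standard error 0.32) and 0.40 for Nfkbiz (0.45), 2 nuclear partners of NF-κB, with edgeR adjusted p of 0.0210 and 0.0298 with the block. The lowest were -0.76 for Cebpd (0.63), a C/EBP factor, and -0.36 for Rel (0.53), an NF-κB subunit. Nfkbiz changed to -0.020 without PNX replicate 3 and Rel to 0.36 without sham replicate 3, so neither has a settled direction. Cebpd was at 98.8, 109 and 44.8 CPM in sham, against 64.8, 65.8 and 23.0 CPM after PNX, so the deposits differed more than the groups. With the block its edgeR adjusted p was 0.00145, at a log2 fold change of -0.81 that is under the fold threshold in size.

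Of the other acute phase products 25 of 36 were tested, and 5 passed with the block, all higher. Cfb, encoding factor B of the complement system, had the highest value (log2 fold change 2.33, standard error 0.77, edgeR adjusted p = 0.331 without and 2.86e-05 with the block) among those with a mean count of at least 50. Further complement genes, the central component C3 (2.00, 0.80, edgeR adjusted p = 9.04e-05 with the block) and C4b (1.42, 0.79, edgeR adjusted p = 0.000189 with the block), also passed with the block. Cfb was at 44.1, 44.2 and 122 CPM in sham, against 188, 187 and 639.9 CPM after PNX. Replicate 3 was the highest library of each group, and the sham and PNX libraries do not overlap. C3 was at 317 and 944 CPM in the earlier and later sham sample and at 1136 and 3919 CPM in the PNX samples. C4b overlapped between the groups, with sham replicate 3 at 285 CPM above PNX replicates 1 and 2 at 254 and 246 CPM. Without the block, leaving out PNX replicate 3 lowered the log2 fold change to 1.17 for Cfb, 0.85 for C3 and 0.48 for C4b, and leaving out sham replicate 3 raised it to 3.23, 3.00 and 2.64. The other genes called were Steap4, a metalloreductase (7.07 ± 4.12 CPM in sham, 32.1 ± 8.94 CPM after PNX), and A2m, encoding α2-macroglobulin, at 0.0891 to 0.261 CPM in sham and 0.848 to 1.48 CPM after PNX. A2m had 21, 15 and 3 counts in sham and 63, 72 and 44 after PNX. Only its earlier sham sample reached the level of the filter, so it needed a PNX sample to be tested. A2m was not called with the block when any 1 library of the earlier deposit was left out, or under any of these 3 other scalings. Among those with a mean count of at least 50, the lowest log2 fold changes were -0.95 for Itih4 (standard error 0.26), an inter-α-trypsin inhibitor chain, and -0.74 for the chitinase-like gene Chil1 (0.21), neither called. The median of the list was 0.31.

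The 11 products that did not pass the filter include the classical liver genes Crp (C-reactive protein), Apcs (serum amyloid P), Fga, Fgb and Fgg (fibrinogen), Hamp (hepcidin), Ttr and Apoa1. Apcs and Fgb had 0 counts in all 6 libraries, and none of these 11 genes had over 10 counts in a library. The 8 hepatocyte markers summed to 1.51 to 2.35 CPM in sham and 1.83 to 2.28 CPM after PNX, with Ahsg the most abundant and Fgb at 0.

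Of the receptors and partners of the members' proteins 5 of 22 passed with the block, all higher, and the median was 0.19. Cd163, the scavenger receptor for haptoglobin-haemoglobin complexes, was at 4.47, 4.94 and 9.15 CPM in sham, against 26.4, 26.5 and 47.5 CPM after PNX (log2 fold change 2.44, standard error 0.45, edgeR adjusted p = 0.139 without and 1.66e-05 with the block), while Hp itself was not higher. Hmox1, haem oxygenase, which degrades the haem taken up, was at 36.3 ± 13.0 CPM in sham and 83.9 ± 8.34 CPM after PNX (1.21, 0.28, edgeR adjusted p = 0.000874 with the block). C1qa, a chain of the complement component C1q that pentraxin-3 binds, had a log2 fold change of 2.42 (0.34, edgeR adjusted p = 0.0902 without and 6.26e-05 with the block). C1qa is also in the list of macrophage markers used here. Tnfaip6, whose protein works with pentraxin-3 in the hyaluronan matrix, was at 2.16 to 3.77 CPM in sham and 7.51 to 7.75 CPM after PNX. Msr1, a scavenger receptor, was at 5.90 to 15.7 CPM in sham and 46.6 to 52.7 CPM after PNX. Receptors that SAA proteins have been described to bind were not called: the log2 fold change was -0.07 for Fpr2, -0.32 for Fpr1, -0.10 for Tlr2, 0.01 for Tlr4, 0.14 for Scarb1 and -0.59 for Cd36, the most abundant of them, at 9546 and 6810 CPM in the sham and 6212 and 4664 CPM in the PNX samples.

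**Figure D4:**
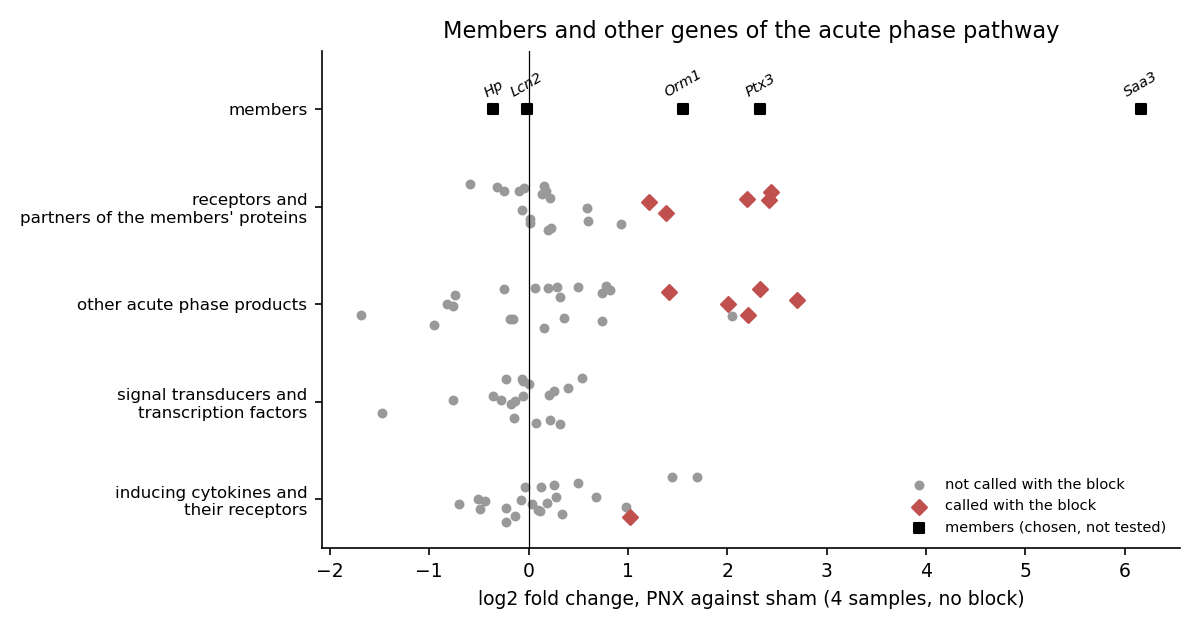
Log2 fold change of PNX against sham (4 samples, no block) for each tested gene of the 4 lists and for the 5 members that passed the filter. Red diamonds are the 11 genes called with the replicate block (5 receptors and partners, 5 products, 1 cytokine, 0 transducers), all right of 0, and the members are black squares, with Saa3 at 6.16.

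As a description with no test, since it uses the Saa3 values that chose the genes, the patterns nearest to that of Saa3 over the 4 samples, by the Euclidean distance of centred log2 CPM among genes with a mean count of at least 50, were Arg1 (distance 1.03), Cd5l (1.23), Vsig4 (1.39), Col24a1 (1.71) and Chl1 (1.75). Vsig4, Col24a1 and Chl1 had at most 12, 20 and 12 counts in a sham library and met that mean through the PNX libraries, so they had to be higher after PNX. Arg1, which encodes arginase, was at 1.35, 1.20 and 4.96 CPM in sham, against 147, 147 and 70.7 CPM after PNX, with replicate 3 the highest in sham and the lowest in PNX as for Saa3. Cd5l and Vsig4, both also in the list of macrophage markers used here, were at 0.740 to 1.19 and 0.124 to 0.238 CPM in sham, and at 23.3 to 38.5 and 5.82 to 6.77 CPM after PNX.

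Macrophages are a known source of Saa3, and 7 of 11 listed macrophage markers (Adgre1 is not among them) had all PNX libraries above all sham libraries, and 6 were called with the replicate block. Of all genes tested, 18.8% had all PNX libraries above all sham libraries, and 5.12% were called with the block in either direction. The macrophage marker sum itself overlapped, at 2304 to 4250 CPM in sham and 3171 to 4174 CPM after PNX, and Lyz2, lysozyme, made up most of it. Marco, a receptor of alveolar macrophages, was at 18.3 to 19.9 CPM in sham and 145, 149 and 63.2 CPM after PNX. The macrophage markers Cd68, Csf1r, Fcgr1 and Lyz2 overlapped between the groups. Cd68 was at 68.6, 71.4 and 193 CPM in sham, against 124, 124 and 236 CPM after PNX. Fibroblast markers summed to 1617 to 1868 CPM in sham and 4477 to 5541 CPM after PNX, with 6 of 10 markers higher in every PNX library and Col3a1, a collagen gene, the most abundant, and mesothelial markers to 257 to 536 and 455 to 1093 CPM, with 3 of 8 and Gpm6a the most abundant. The other fibroblast markers, Pdgfra, Dpt, Pi16 and Tcf21, overlapped between the groups. Pdgfra was at 323 to 399 CPM in sham and 192 to 338 CPM after PNX. None of the markers was at 0 in all libraries for any of these 3 cell types. The part of these cells in the levels of Saa3, Ptx3 and the list genes was not tested.

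**Figure D5:**
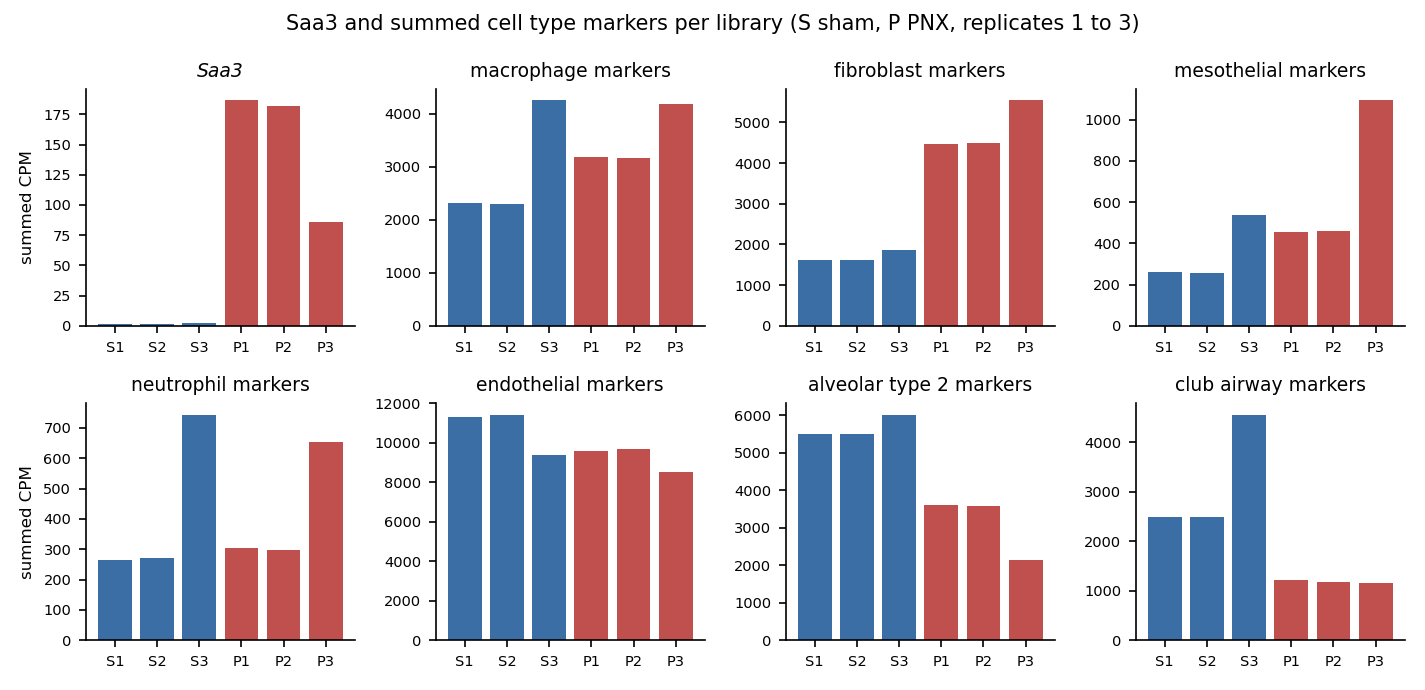
Saa3 and the summed CPM of marker genes of 7 cell types in each library (S, sham; P, PNX; numbers are replicates; each panel has its own axis from 0). The fibroblast sum is higher in every PNX library, the alveolar type 2 and club airway sums are lower in every PNX library, and the macrophage, mesothelial and neutrophil sums overlap between the groups.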

How the data were processed

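Libraries were stranded mRNA, read from both ends, and the authors used the Basepair platform with mm10 (GRCm38) for alignment and counting. The submitters' processing notes name STAR. Its version, the counting rule and the strand setting were not given in the sources used. The deposited files hold, per library, whole-number counts of 33068 RefSeq transcripts, beside the authors' FPKM and TPM. Counts were summed per symbol and 0 rows lacked a symbol. The authors' TPM values were used only for levels between genes, and the authors' FPKM values were not used.

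Replicates 1 and 2 of each group were summed. The test was edgeR's quasi-likelihood test (edgeR 4.0.16, R 4.3.3) with TMM, filterByExpr and Benjamini-Hochberg adjustment over all genes tested. A gene was called where the adjusted p was below 0.01 and the log2 fold change beyond 1 in size. Its standard error is the log2 fold change divided by the square root of F. DESeq2 1.42.0 and limma 3.58.1 (voom) were alternatives, besides other scalings, filters, separate libraries and libraries left out. The labels pair the groups by deposit, and across 12114 genes with at least 100 counts in every sample the deposit differences of sham and of PNX had a Pearson's r of 0.797 and a Spearman's rho of 0.786, so the deposit was the replicate block. The fits were tested on simulated data. Fold intervals are exact Clopper-Pearson intervals (SciPy 1.17.1), which cover counting error only, and windows were aligned with Biopython 1.88.

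The members, lists, named genes and tests were chosen with earlier results of these data known. Named genes were the members, the 2 highest and 2 lowest log2 fold changes per list at a mean count of at least 50, list genes called with the block, the 5 genes nearest Saa3 and the most abundant marker of each list. Saa4, Orm2, Orm3, Veph1, Marco, Cd68, Csf1r, Fcgr1 and the SAA receptors other than Cd36 were added after their values were seen.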

Additional observations from a re-analysis of the deposited data

Results flagged for a closer look

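Lcn2 had a log2 fold of 0.15 in the earlier deposit and -0.19 in the later one, so the PNX sample lay above the sham sample in one and below it in the other. The difference between the deposits was not tested, as each holds 1 sample per group.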

How the results depend on the processing

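On 4 samples without a block, edgeR called 0 genes and 0 list genes, and gave 3 members a log2 fold change above 1. The number of genes called became 849 under the replicate block, 409 for 6 separate libraries, 587 with DESeq2 on 4 samples, 927 with DESeq2 on 6 libraries and 813 with DESeq2 and the block. With the block it was 624 under DESeq2's size factors, 646 under upper-quartile scaling, 629 with library size alone and 985 with no filter. The numbers of list genes called in these 9 fits, in the same order, were 11, 1, 8, 10, 11, 7, 9, 8 and 11. Of the 11 with the block, 7 were among the 10 of DESeq2 on 6 libraries. The block split all calls into 645 higher and 204 lower, against 540 and 84 under DESeq2's size factors. Leaving out 1 library at a time gave 0 to 2 genes and 0 list genes without the block (2 genes without PNX replicate 3). With the replicate block it gave 671 and 668 genes when replicate 1 or 2 of sham was left out, 485 and 863 when replicate 1 or 2 of PNX was, and 6 to 10 list genes. With an adjusted p under 0.05 in place of 0.01, the fit without a block still gave 0 genes with all libraries, but 255 with no filter, 204 without sham replicate 3 and 109 without PNX replicate 3. Members above a log2 fold change of 1 numbered 5 in DESeq2 (4 samples, 6 libraries, or with the block) and with no filter (with or without the block), which test Saa1 and Saa2 on at most 9 counts per library. The 550 genes called between the deposits became 238 without PNX replicate 1, and leaving out 1 library of the earlier deposit gave 238 to 558. The member values moved by less than the spread between the deposits in all 129 comparisons with an alternative. Leaving out 1 library at a time moved the log2 fold change of Rel between -0.96 and 0.36 (the latter without sham replicate 3) and that of Nfkbiz between -0.020 (without PNX replicate 3) and 1.05, so both changed sign. Separate deposits cannot be left out of the deposit test, which would have no residual degrees of freedom. Fits with the block, other than those with TMM, DESeq2 or DESeq2's size factors and all libraries, were chosen after seeing the data. The cause of these differences was not tested.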

Other observations

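Adipocytes can express Saa3, and 6 of 9 adipocyte markers had all PNX libraries above all sham libraries, as did 18.8% of all genes tested. The median log2 fold change over the 8 tested was 3.34. Of these 8, Adipoq, Pck1 and Retn had at most 1, 6 and 6 counts in a sham library. They passed the filter through the PNX libraries, so they had to be higher after PNX. Cfd, with 18, 14 and 2 counts in sham, also needed a PNX sample to pass. Nothing is read from that median or from the count of 6 of 9. The sum of the 9 markers was 31.0 to 58.7 CPM in sham and 45.9 to 51.2 CPM after PNX. Cidec was the most abundant, at 28.6 to 55.5 CPM in sham and 24.9 to 39.0 CPM after PNX. The part of adipocytes in the level of Saa3 was not tested.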
